A study of Salmo salar with 58 samples.

Results

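The genes described here encode the nuclear parts of the mitochondrial respiratory chain of Atlantic salmon (Salmo salar) and a few of the proteins that build or restrain it. They were chosen by symbol: every row whose NCBI gene symbol starts with nduf (complex I), sdh (complex II), uqcr (complex III), cox and a digit (complex IV) or atp5 (complex V, the ATP synthase), which gave 64 of the 26239 genes in the table. Of these, 45 encode subunits, 17 encode assembly factors, which the symbol rule takes in as well, and 2 encode the ATP synthase inhibitor. Complex I had 16 subunits and 6 assembly factors, complex II 4 and 4, complex III 2 subunits, complex IV 10 subunits and 7 assembly factors, and complex V 13 subunits beside the 2 inhibitor genes. Of the 26239 genes, 7529 carried a named symbol. The counts per complex therefore cover named genes that met the rule, not every subunit gene measured. The subunits encoded in mitochondrial DNA were not analysed here.

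Fish were sampled 12 h after acute exposure in vivo, and poly(A)-selected RNA of the liver and of the distal intestine was sequenced. The toxins were enniatin B (ENNB in the figures) and beauvericin (BEA), ring-shaped depsipeptides made by Fusarium moulds that occur in feed ingredients and carry ions across membranes. In beauvericin, N-methylated phenylalanine stands where enniatin B has N-methylated valine. Each tissue had a control group (6 libraries), low and high enniatin B (6 and 6) and low and high beauvericin (5 and 6), so 58 libraries in 10 groups. The labels name no genetic change, age and strain were not used here, and the levels are given only as low and high, so low or high of one toxin is not known to equal that of the other in amount. The labels do not state that each number is a separate fish, and p-values measure the spread between these samples.

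The respiratory chain sits in the inner mitochondrial membrane. Complexes I and II pass electrons from NADH and succinate to ubiquinone, complex III hands them to cytochrome c, complex IV gives them to oxygen, and the proton gradient that complexes I, III and IV build up drives complex V to make ATP. Salmonid genomes carry many gene copies from an ancestral genome duplication, so a subunit can have more than 1 gene, and several complex IV subunits have tissue forms in mammals.

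Values are normalized counts, that is, reads assigned to a gene divided by 1 factor per library, and log2 differences are on the scale log2(value + 2). Gene lengths were not used, so a level is compared only with the level of the same gene in other samples. Depth was 23283889 to 40626189 assigned reads in the 29 intestine libraries and 30743665 to 61678301 in the 29 liver libraries. All 64 genes passed the filter on low values in both tissues. Hepatocyte genes summed to between 3703496 and 5824349 in the liver libraries and to at most 71.1 in the intestine libraries. Intestine controls 5 and 6 stood apart from the other intestine libraries: their summed enterocyte markers were 1189 and 1982 against 116825 to 186416 in controls 1 to 4, with 2 and 1 of the 8 markers at 0, and their acta2, a smooth muscle actin, was 189895 and 223753 against 38592 to 85985. Their goblet cell marker agr2 was higher, at 11737 and 12274 against 1654 to 5327 in controls 1 to 4. Their summed T and B cell markers were lower, at 235 and 256 against 1056 to 1786. Their labels call them control intestine. The counts of calls in intestine comparisons are given with and without them, as are most single genes of the 64 whose call they decide. In bulk samples, fewer cells of a type and less RNA per cell cannot be told apart.

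The first comparison set control liver beside control intestine. The sample descriptions place all liver libraries in a numbered series and all intestine libraries in a different one. What these series stand for is not stated, and tissue and series cannot be told apart. Of the 64 genes, 20 were higher and 17 lower in liver, so 57.8% differed between the tissues (limma, Benjamini-Hochberg adjusted p under 0.05). Over all 24519 genes tested in both tissues, 66.3% differed, 31.1% higher and 35.2% lower in liver. The median log2 difference was 0.02 over the respiratory chain genes and -0.05 over all genes. Differences in most genes were small, and those in 4 genes were over 1.5 on the log2 scale: cox4i1l, ndufb4, atp5if1a and cox5ba. Summed, the normalized counts of the 64 genes were 59449 to 106092 in the intestine libraries and 59449 to 88692 in the liver libraries. As a share of every 10000 normalized counts they made up 29.9 to 48.1 in intestine and 10.9 to 16.8 in liver, whose libraries had the larger totals. Higher or lower in liver therefore refers to the scaled counts, and single genes were not tested as shares of the total.

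**Figure D1:**
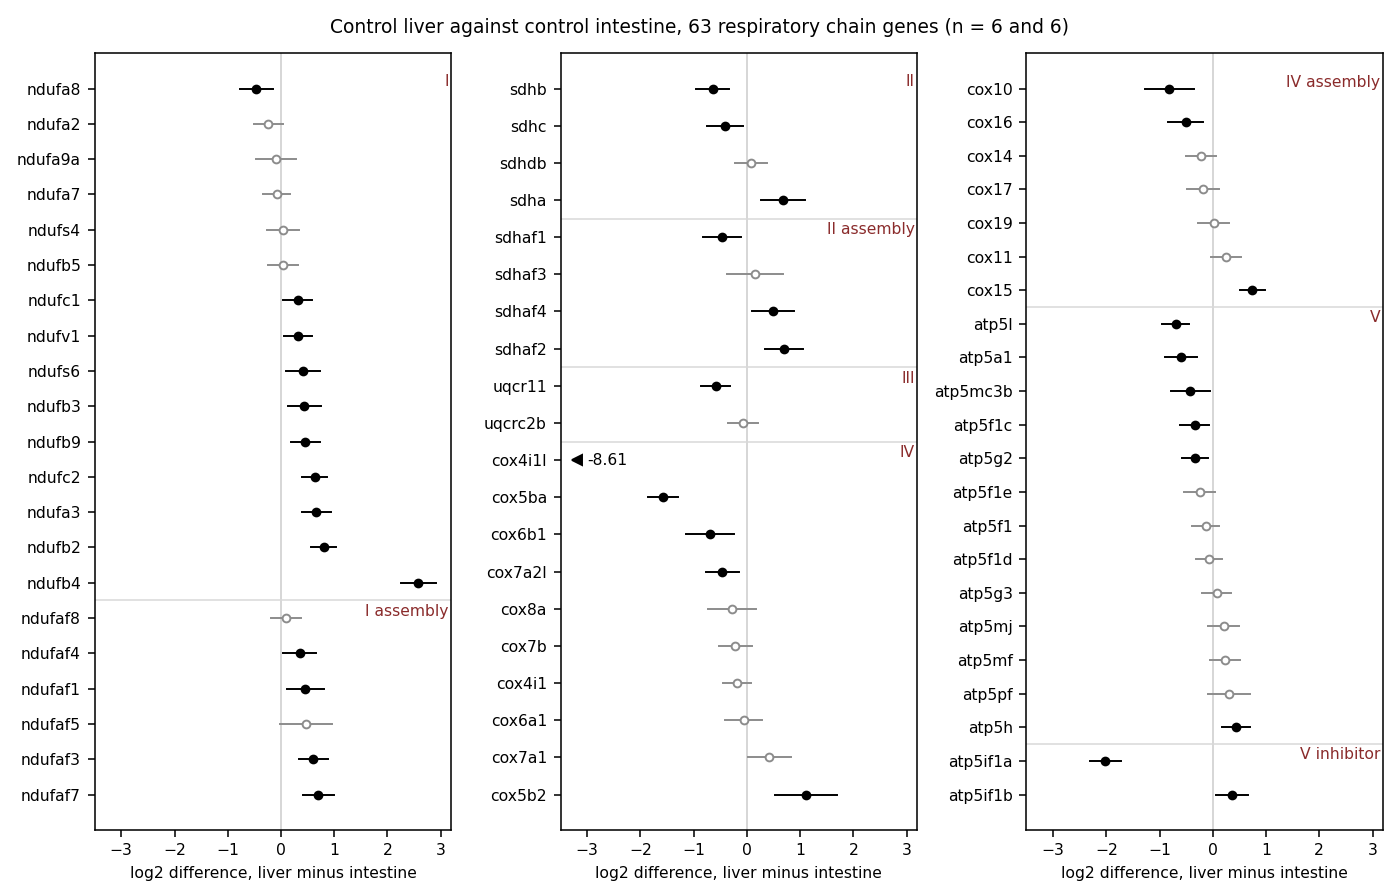
Log2 difference between control liver and control intestine (x axis, liver minus intestine, log2(value + 2) scale) for 63 of the 64 genes, grouped by complex. Points are limma estimates over 6 and 6 libraries and lines are 95% intervals; filled points passed an adjusted p under 0.05, and the arrow marks cox4i1l, at -8.61 beyond the axis.

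Complex IV, cytochrome c oxidase, held the gene with the widest tissue difference. The gene cox4i1l (gene ID 106579596), annotated as like the complex IV subunit 4 gene cox4i1, had a lowest, median and highest normalized count of 3859, 4490 and 5720 in control intestine and of 2.66, 9.73 and 29.1 in control liver. The tissues were far apart, and no liver library of any group came near an intestine library. The log2 difference was -8.61 ± 0.41 (SE, n = 6 and 6; limma adjusted p = 5.1e-25). With a pseudocount of 10 in place of 2 it was -7.81, since so few liver counts leave the size open to that choice. Its partner cox4i1 (gene ID 106587370), the usual subunit 4 gene, was at a median of 3962 in control intestine and 3170 in control liver, and the groups overlapped. Its difference of -0.19 ± 0.13 did not pass (limma adjusted p = 0.22), but without intestine controls 5 and 6 it did (limma adjusted p = 0.0105). Reads shared between such close copies may be split unevenly by the counting, so the counts of each copy are uncertain to that extent.

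The copies of subunit 5B, a zinc-binding subunit, went opposite ways. In control intestine cox5ba (gene ID 106563057) ran from 747 through a median of 1336 to 1808, and in control liver from 291 through 434 to 513. All intestine libraries were above all liver libraries, and the lowest intestine values were those of controls 5 and 6. The log2 difference was -1.57 ± 0.14 (limma adjusted p = 2.64e-14), and -1.89 without those controls. The copy cox5b2 (gene ID 106576835) ran from 510 through 1128 to 1308 in control intestine and from 1548 through 2224 to 2968 in control liver. Here all liver libraries were the higher ones, by 1.11 ± 0.29 on the log2 scale (limma adjusted p = 0.000833). Of the other complex IV subunits, cox6b1 on the intermembrane side was lower in liver by -0.69 ± 0.22 (limma adjusted p = 0.00621), and so was cox7a2l, a supercomplex factor in mammals, by -0.46 ± 0.15 (limma adjusted p = 0.00767). The 5 others, cox4i1, cox6a1, cox7a1, cox7b and cox8a, did not pass. One of them, cox7a1, a heart and muscle form in mammals, was 0.42 ± 0.20 higher in liver (limma adjusted p = 0.0649), and passed without intestine controls 5 and 6 (limma adjusted p = 0.0312), with TMM scaling (limma adjusted p = 0.0456) and with only the compared groups in the fit (limma adjusted p = 0.0293).

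Of the 7 complex IV assembly factors, cox15, the heme A synthase, was higher in liver. Its normalized count ran from 472 through 599 to 690 there and from 294 through 340 to 434 in intestine, with no overlap, and the difference was 0.74 ± 0.12 (limma adjusted p = 2.46e-07). The gene that acts just before it, cox10, which makes heme O, went the other way by -0.82 ± 0.23 (limma adjusted p = 0.00157). It ran from 187 through 394 to 620 in liver and from 390 through 705 to 946 in intestine, so the tissues overlapped. The third that passed, cox16, was lower in liver by -0.51 ± 0.16 (limma adjusted p = 0.00498).

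In complex I, 9 of its 16 subunits were higher in liver and 1, ndufa8, was lower. Without intestine controls 5 and 6, 6 were higher, the calls of ndufc1, ndufs6 and ndufv1 being lost, as was that of ndufa8 (limma adjusted p = 0.0785). Then ndufa9a was the 1 lower subunit, at -0.58 (limma adjusted p = 0.000351) against -0.09 with all controls. The accessory subunit ndufb4 of the membrane arm (gene ID 100196139) ran from 68.4 through 154 to 200 in control intestine and from 616 through 783 to 1307 in control liver. Every liver library exceeded every intestine library, controls 5 and 6 giving the 2 lowest intestine values. The log2 difference was 2.58 ± 0.16 (limma adjusted p = 5.15e-20), and 2.23 without those controls. Its neighbour in the membrane arm, ndufb2, ran from 766 through 946 to 1067 in intestine and from 1232 through 1701 to 1990 in liver. It too had no overlap, and differed by 0.81 ± 0.12 (limma adjusted p = 3.11e-08). The accessory subunits ndufa3 and ndufc2 were 0.66 ± 0.14 and 0.63 ± 0.12 higher in liver (limma adjusted p = 3.59e-05 and 7.12e-06), ndufa3 by 0.39 without those controls. The catalytic core gene ndufv1, whose product binds the NADH-oxidizing flavin, was 0.32 ± 0.13 higher with all controls (limma adjusted p = 0.0249). Among the 6 assembly factors 4 were higher in liver and none lower, led by ndufaf7, a methyltransferase acting on a core subunit, at 0.70 ± 0.15 (limma adjusted p = 4.46e-05). The call of ndufaf1 was lost without intestine controls 5 and 6, where it moved from 0.46 to 0.11 (limma adjusted p = 0.543), and that of ndufaf4 in 8 of 12 fits that left out 1 control library.

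Complex II, succinate dehydrogenase, was split. The iron-sulfur subunit sdhb ran from 2037 through 2560 to 3548 in control intestine and from 1277 through 1801 to 2079 in control liver. Only the highest liver libraries reached the lowest intestine value, that of control 5, and it was lower in liver by -0.65 ± 0.15 (limma adjusted p = 0.000266). The flavoprotein sdha ran from 1183 through 2588 to 4202 in intestine and from 2996 through 3751 to 5053 in liver. The groups overlapped, and the 2 lowest intestine values, 1183 and 1347, were controls 5 and 6. The difference of 0.68 ± 0.21 passed with all libraries (limma adjusted p = 0.00327) but was 0.23 without those controls and did not pass (limma adjusted p = 0.264). The membrane anchor sdhc was lower by -0.41 ± 0.17 (limma adjusted p = 0.0306), a call lost without those controls, and sdhdb was at 0.08 ± 0.15. With all libraries sdhc did not pass in edgeR (adjusted p = 0.095) or DESeq2 (adjusted p = 0.092). It also failed with only the compared groups (limma adjusted p = 0.213), and 7 of 12 fits that left out 1 control library kept the call. Of the 4 assembly factors, sdhaf2, which helps attach the flavin to sdha, and sdhaf4 were higher in liver by 0.70 and 0.49, and sdhaf1, linked to the iron-sulfur subunit, was lower by -0.47, all 3 past the limma threshold.

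Only a pair of complex III genes met the symbol rule. The complex III subunit gene cyc1 fell outside it and was at -0.08 ± 0.14 (limma adjusted p = 0.62). It is counted below among the carriers and among the genes with other symbols. The small subunit uqcr11 was lower in liver by -0.59 ± 0.14 (limma adjusted p = 0.000185), from a median of 995 in intestine to 639 in liver. The core protein uqcrc2b was at -0.07 ± 0.14 (limma adjusted p = 0.661), and at -0.34 without intestine controls 5 and 6, where it passed (limma adjusted p = 0.0259).

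In complex V, 5 of 13 subunits were lower in liver and 1 was higher. The alpha subunit gene atp5a1, which forms the catalytic head with the beta subunit, ran from 7720 through 12162 to 20698 in control intestine and from 6643 through 8335 to 9351 in control liver. The ranges overlapped through intestine control 5, and the difference was -0.60 ± 0.15 (limma adjusted p = 0.000405). The g subunit gene atp5l was lower by -0.70 ± 0.13 (limma adjusted p = 3.21e-06), while the peripheral stalk gene atp5h was higher by 0.43 ± 0.13 (limma adjusted p = 0.00366). Of the 3 genes of the rotor ring, atp5g2 and atp5mc3b were lower in liver (-0.34 and -0.43), and atp5g3 was at 0.07. The call of atp5mc3b was lost without intestine controls 5 and 6 (-0.27, limma adjusted p = 0.234), with only the compared groups and in 7 of 12 fits that left out 1 control library. In mammals the genes of this ring encode one mature peptide, and their counts here are uncertain where reads were shared.

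The inhibitor genes differed in opposite directions. The product of atp5if1 stops the ATP synthase from running backwards when the gradient collapses. The copy atp5if1a (gene ID 106588193) ran from 1060 through 1318 to 1623 in control intestine and from 277 through 325 to 372 in control liver. Every intestine library was above every liver library, and the difference was -2.02 ± 0.14 (limma adjusted p = 7.71e-18). The copy atp5if1b (gene ID 106563115) ran from 131 through 154 to 235 in intestine and from 168 through 213 to 232 in liver, overlapping through intestine control 2, the highest library of its group. It was 0.36 ± 0.15 higher in liver (limma adjusted p = 0.0307), a call lost without intestine controls 5 and 6 (limma adjusted p = 0.1003).

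**Figure D2:**
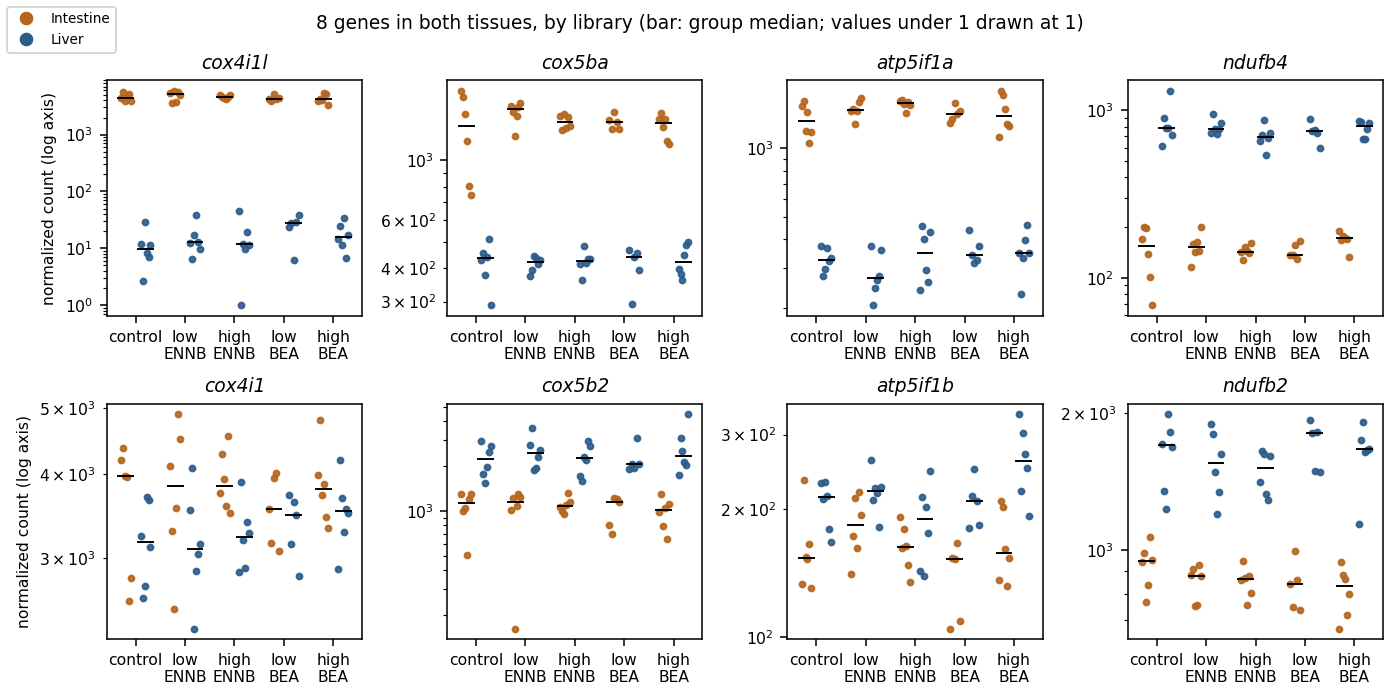
Normalized counts (log axis) of 8 genes in each library of the 5 groups, intestine in brown and liver in blue, with bars at group medians and the single value under 1 drawn at 1. The tissue gap in cox4i1l, cox5ba, atp5if1a and ndufb4 is present in every group, while cox4i1 overlaps between tissues.

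Without intestine controls 5 and 6, 33 of the 64 genes differed between the tissues, 15 higher and 18 lower in liver, against 68.6% of all genes, and without intestine low enniatin B 3 as well 34 did, against 69.1%. Of the 37 calls, 21 held in each of the other settings and in each fit that left out 1 control library: 10 higher in liver and 11 lower. The 10 were ndufb4, ndufb2, ndufa3, ndufc2, ndufb9, ndufaf3, ndufaf7, sdhaf2, cox5b2 and cox15. The 11 were cox4i1l, cox5ba, cox6b1, cox7a2l, cox10, cox16, sdhb, uqcr11, atp5a1, atp5l and atp5if1a. The 16 others lost the call in at least 1 setting.

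Genes that work with the respiratory chain but fell outside the symbol rule were taken from lists, beside which stand the 66.3% of all genes that differed between the tissues. Of 20 other assembly factors, 6 were higher in liver and 2 lower; the largest positive difference was in coa8, a complex IV factor (1.04 ± 0.17, limma adjusted p = 4.58e-07), and the largest negative one in uqcc1, a complex III factor (-1.21 ± 0.18, limma adjusted p = 1.07e-07). Of 24 symbols listed for the citric acid cycle and its supply with acetyl-CoA, 7 were in the table (cs, idh2, ogdha, suclg2, fh, pdha1a and pdk4), and all 7 differed, 4 higher and 3 lower in liver. Of 6 electron and metabolite carriers 3 were higher and 2 lower, of 5 mitochondrial chaperones and proteases 4 were higher and none lower, and of 5 antioxidant genes none was higher and 3 were lower. The import genes gave 2 higher of 5, coenzyme Q synthesis 2 of 6 and the regulators of mitochondrial biogenesis 2 of 6, each with none lower. Of 8 genes with other symbols for chain subunits, 1 was lower and none higher. Without intestine controls 5 and 6 the other assembly factors gave 5 higher and 7 lower, the import genes 0 of 5, coenzyme Q synthesis 2 higher and 1 lower, and chaperones and proteases 3 higher and 1 lower, while the counts of the other lists were equal. The calls lost were those of coa1, foxred1, timm8a, tomm70a, lonp1 and twnk. Of these, twnk was in the list of biogenesis regulators, whose count was equal though its called genes were not the same.

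Among the 64 genes the exposures gave no limma call with all libraries in the fit. In each of the 8 comparisons of an exposed group with the control of its tissue, limma called 0 of 64, and over all genes it called 0% for both levels of enniatin B in both tissues and for high beauvericin in liver, 0.0156% for low and 0.00391% for high beauvericin in intestine and 0.127% for low beauvericin in liver. At an unadjusted p under 0.05, the counts in intestine were 2, 8, 12 and 3 of 64 for low and high enniatin B and low and high beauvericin, against 17.5%, 17.7%, 18.7% and 16.9% of all genes. In liver they were 1, 0, 1 and 12 of 64, against 3.64%, 2.77%, 8.27% and 9.44% of all genes. The edgeR quasi-likelihood test called 0 of 64 in all 8, against 1.87%, 1.86%, 0.918% and 1.96% of all genes in intestine. In liver edgeR called 0.0716% of all genes for low beauvericin and 0% in the other exposures. DESeq2 called 1 in high enniatin B intestine (atp5mc3b) and 1 in low beauvericin intestine (atp5mf), where it called 4.9% and 5.71% of all genes. It called 0 of 64 in the other 6, against 5.7% of all genes for low enniatin B and 4.95% for high beauvericin in intestine. In liver its shares were 0.00795% to 0.322%. With all 6 controls in the fit, the intervals bounded large changes for more of the genes than small ones. The 95% interval lay within 1 log2 unit of no difference for 64, 64, 63 and 64 of the genes in intestine. In liver it did so for 62, 63, 62 and 63. Over all genes the shares were 73.9%, 74.2%, 71.3% and 73.4% in intestine and 82.3%, 83.1%, 77.6% and 80.0% in liver. Within 0.5 log2 units of no difference the interval lay for only 38, 35, 31 and 42 of the 64 genes in intestine and 52, 51, 47 and 38 in liver. For the 64 genes the median interval reached 0.32 to 0.34 to either side in intestine and 0.29 to 0.30 in liver.

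In intestine, more of the genes were below the control than above it in each exposed group, but leaving out 1 library could undo or nearly undo this. With all 6 controls, 36, 37, 43 and 40 of the 64 genes were below 0 for low and high enniatin B and low and high beauvericin, with medians of -0.04, -0.06, -0.07 and -0.09, while 48.2%, 48.3%, 48.8% and 48.3% of all genes were below 0. Leaving out 1 library gave 26 to 47, 32 to 47, 34 to 50 and 33 to 49 genes below 0. The medians nearest 0 were then -0.0015, -0.02 and -0.0027 for high enniatin B and low and high beauvericin. For low enniatin B the median was then -0.09 to 0.04, positive without control 2 (28 genes below 0) and without low enniatin B 3 (26). The counts at an unadjusted p under 0.05 were then 2 to 11, 5 to 16, 6 to 16 and 1 to 9, and without control 4 they were 11, 16, 16 and 9. Without controls 5 and 6, the numbers of genes below 0 were 55, 53, 56 and 55, with medians of -0.15, -0.18, -0.22 and -0.14, while 50.3%, 46.9%, 47.6% and 50.6% of all genes were below 0. The same control libraries enter all 4 comparisons. Without intestine low enniatin B 3 as well, the number below 0 for low enniatin B was 46. Without controls 5 and 6 limma called 0 of the 64 genes in these comparisons, against 0% of all genes for enniatin B and 0.00391% for each level of beauvericin. The edgeR and DESeq2 fits also called 0 of the 64, and their shares over all genes are not given here. At an unadjusted p under 0.05 there were then 1, 6, 12 and 3, against 6.96%, 9.42%, 8.16% and 4.66% of all genes.

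**Figure D3:**
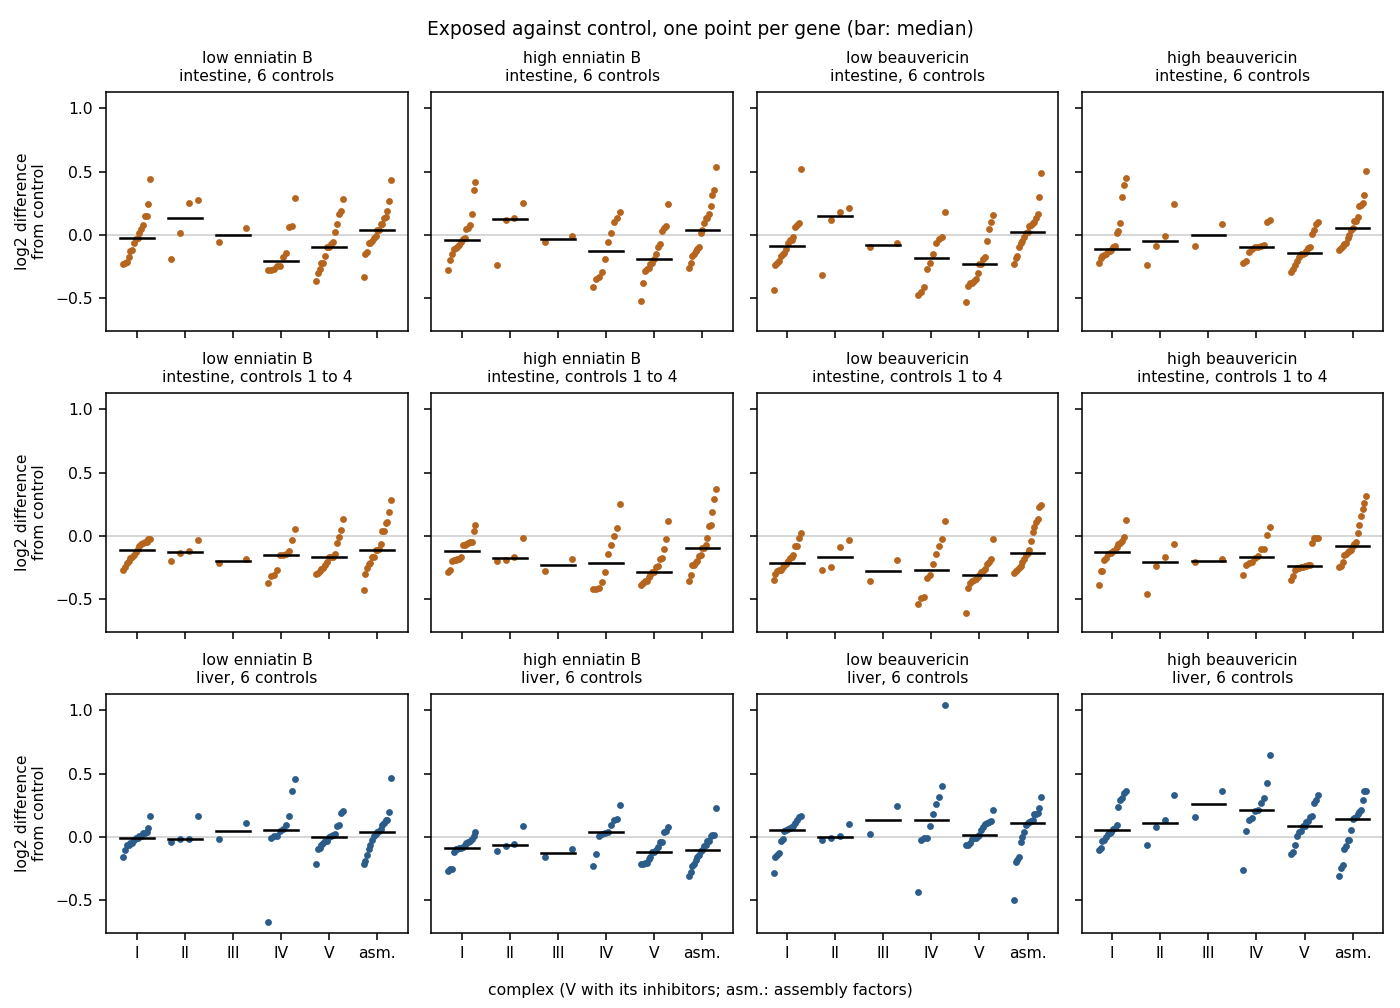
Log2 difference from the control (y axis) of each gene in each exposed group, sorted within complexes I to V (V with its 2 inhibitors) and the assembly factors (asm.), with bars at medians. The top row uses all 6 intestine controls, the middle row controls 1 to 4 and the bottom row the liver. In the middle row all 4 complex II subunits and all 13 complex V subunits lie below 0 in each panel. The panels of a row share the same controls.

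By complex, the difference between the control sets was plainest in complex II. With 6 controls its 4 subunits had medians of 0.13, 0.12, 0.15 and -0.05 in the 4 exposures, and with controls 1 to 4 of -0.13, -0.18, -0.17 and -0.20, all 4 subunits being below 0 in each. Complex V had 10, 11, 11 and 11 of its 13 subunits below 0 with 6 controls. Without controls 5 and 6 all 13 were below 0 in each exposure, at medians of -0.20, -0.29, -0.33 and -0.25. These are not 4 separate results, since the same controls 1 to 4 enter each. In those controls the complex V median was 0.30, 0.61, 0.22 and -0.19 log2 units from the tissue median. Complex I had 9, 10, 12 and 10 of 16 below 0, and 16, 14, 15 and 15 without those controls.

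The single libraries show where the control spread lies. The values of sdha in intestine controls 1 to 6 were 4202, 3755, 2626, 2549, 1183 and 1347, and the exposed groups ran from 1548 to 4108 for low enniatin B, 2465 to 3644 for high enniatin B, 2301 to 3191 for low beauvericin and 1958 to 2617 for high beauvericin. The exposed libraries thus lay inside the control range, below its top and above controls 5 and 6. The complex I gene ndufa9a (gene ID 106561367), at the junction of the matrix and membrane arms, was at 715, 689, 634, 540, 213 and 246 in those controls, and at 398 to 798 in the exposed libraries. Controls 5 and 6 were the only libraries of the tissue under 300. The markers of enterocytes, smooth muscle, goblet cells and T and B cells also set these 2 controls apart, as given above. Their part in the result was not tested.

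The gene nearest to a call in intestine was atp5mf (gene ID 106603810), which encodes the f subunit of the ATP synthase membrane part. It was at 422, 387, 437, 266, 332 and 300 in controls 1 to 6 and at 218, 244, 242, 219 and 297 in low beauvericin. The exposed libraries were low, and the highest of them overlapped only control 4. The difference was -0.53 ± 0.15 (limma adjusted p = 0.17), and -0.61 without controls 5 and 6 (limma adjusted p = 0.48). With DESeq2 it was -0.55 and passed (DESeq2 adjusted p = 0.0147), as it did in limma without control 4 (limma adjusted p = 0.0266), where 5 of the 64 genes and 4.17% of all genes were called. That control also had the highest summed acinar pancreas markers of the intestine libraries, 5093, and their part in the result was not tested.

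The copper-handling assembly factor cox19 (gene ID 106589330) was at 228, 158, 180, 221, 123 and 109 in intestine controls 1 to 6. It had medians of 213, 226, 227 and 239 in low and high enniatin B and low and high beauvericin. Controls 5 and 6 were the lowest libraries of the tissue, and the other controls overlapped the exposed groups. Its difference from control was 0.43, 0.54, 0.49 and 0.51 in the 4 exposures, with a limma adjusted p of 0.19 to 0.27. Without controls 5 and 6 it was 0.19, 0.29, 0.24 and 0.26, with a limma adjusted p of 0.538 or more. The rotor ring gene atp5mc3b (gene ID 100196670) was at 530, 702, 671, 221, 579 and 792 in the controls and at 420, 279, 439, 356, 423 and 374 in high enniatin B. Control 4 was below every exposed library, and the 5 other controls were above every one of them. The difference was -0.52 ± 0.20 (limma adjusted p = 0.20), -0.36 without controls 5 and 6 (limma adjusted p = 0.568), and -0.78 without control 4, where it passed (limma adjusted p = 0.00759) with cox19 (0.62, limma adjusted p = 0.0323), atp5f1e and 5.91% of all genes. Low enniatin B without control 4 gave 1 call, also atp5mc3b, against 2.37% of all genes.

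**Figure D4:**
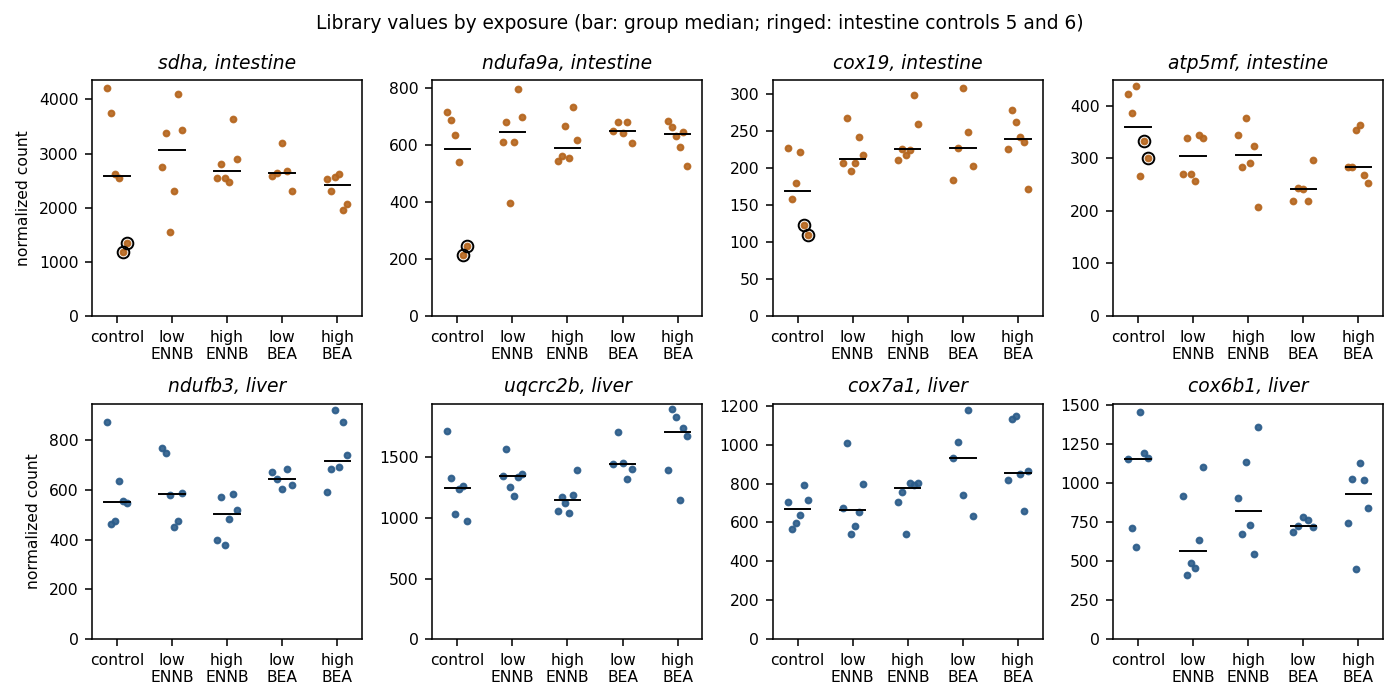
Normalized counts (linear axis from 0) in each library for 4 genes of intestine (top) and 4 of liver (bottom) across the 5 groups, with bars at medians and rings around intestine controls 5 and 6. The ringed controls are the lowest intestine libraries for sdha, ndufa9a and cox19, and ndufb3 and uqcrc2b are lower in high enniatin B than in high beauvericin for most liver libraries.

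In liver, most genes were above the control in high beauvericin and most were below it in high enniatin B. The libraries of both groups overlapped the controls, and limma called none of the genes in either group. In high beauvericin 48 of the 64 genes were above the control (median 0.12), and in high enniatin B 46 were below it (median -0.08), each beside the same 6 controls. By library, the median distance of the 64 genes from the tissue median was -0.16 to 0.14 in the controls (group median -0.04). It was -0.18 to 0.00 in high enniatin B (group median -0.05) and -0.13 to 0.26 in high beauvericin (group median 0.12). In the low-level groups 35 of 64 were above 0 for enniatin B (median 0.01) and 40 for beauvericin (median 0.06). Over all genes 48.7% to 49.4% were below 0 in these 4 comparisons. Leaving out 1 library kept 40 to 53 genes above the control in high beauvericin and 40 to 53 below it in high enniatin B. For low enniatin B it gave 24 to 47 above and a median of -0.04 to 0.05, negative without low enniatin B 2 and 6 and without controls 2, 3 and 6. Summed erythroid markers had a median of 5805 in the liver controls (2689 to 8959) and of 2491 to 4073 in the exposed groups, and their part in the result was not tested. With complex III and its 2 genes left out of the ranking, complex IV had the highest median in high beauvericin, 0.21 with 9 of 10 subunits above 0. Complex IV was the only complex with a positive median in high enniatin B, 0.04. The 4 complex II subunits were at medians of -0.02, -0.07, 0.00 and 0.11 for low and high enniatin B and low and high beauvericin.

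Setting the toxins against each other at the same label gave 4 comparisons, 2 in each tissue, and limma called 0 of the 64 genes in each, as did edgeR and DESeq2. Over all genes limma called 0% in 3 of the 4 and 0.00391% for the high levels in intestine. There edgeR called at most 0.0159% and DESeq2 at most 0.123% of all genes in the 4 comparisons. In liver, high enniatin B was below high beauvericin for 53 of 64 genes, at a median of -0.20, while the median of all genes was 0.000446. At an unadjusted p under 0.05 there were 19 of the 64, or 29.7%, against 10.3% of all genes. Leaving out any 1 library of the pair kept the number of genes below 0 between 49 and 60, the median between -0.24 and -0.16 and the number at an unadjusted p under 0.05 between 10 and 24. It was 10 without high beauvericin 2. The low levels in liver gave 40 of 64 below 0 and a median of -0.05, with 0 genes at an unadjusted p under 0.05 against 3.99% of all genes.

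The smallest p in that liver comparison belonged to ndufb3 (gene ID 100286592), an accessory subunit of the complex I membrane arm. Its values were 398, 571, 380, 484, 581 and 518 in high enniatin B and 591, 682, 918, 690, 870 and 739 in high beauvericin. All libraries of high enniatin B were below all of high beauvericin, and the controls, at 463 to 870, overlapped both. It differed by -0.62 ± 0.15 (95% interval -0.93 to -0.31), at a limma adjusted p of 0.22. At the low levels it was -0.13, with an interval of -0.45 to 0.20.

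The complex III core gene uqcrc2b (gene ID 106589600) was at 1058, 1172, 1125, 1041, 1187 and 1393 in high enniatin B and at 1396, 1893, 1828, 1144, 1740 and 1675 in high beauvericin. High beauvericin 4 was the library that fell among those of high enniatin B. It differed by -0.46 ± 0.13 (95% interval -0.72 to -0.20) at a limma adjusted p of 0.29, and against control high beauvericin was at 0.36 ± 0.13 (limma adjusted p = 0.41). The accessory complex I genes ndufa3 and ndufa2 were at -0.35 and -0.44, and atp5if1b and atp5l of complex V at -0.49 and -0.34, with a limma adjusted p of 0.30 to 0.32. For ndufa3 the groups did not overlap, with 582 to 696 in high enniatin B and 698 to 881 in high beauvericin. The complex II flavoprotein sdha stood at 0.01, with an interval of -0.30 to 0.32, and the subunit 4 gene cox4i1 at -0.11, with an interval of -0.36 to 0.14.

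The other mitochondrial lists had no gene called by limma in that comparison, where 49.9% of all genes were below 0. Below 0 were 17 of 20 other assembly factors (median -0.16), 6 of 6 carriers (-0.14), 6 of 7 citric acid cycle genes (-0.17), 5 of 5 antioxidant genes (-0.26), 4 of 5 import genes (-0.25), 5 of 6 coenzyme Q genes (-0.11), 3 of 5 chaperones and proteases (-0.18), 6 of 8 subunit genes with other symbols (-0.21) and 3 of 6 biogenesis regulators (-0.01). Depth moved with the groups, at 30743665 to 35327420 reads in high enniatin B and 35277327 to 61678301 in high beauvericin, as did summed hepatocyte markers, at 3998086 to 5030790 and 3703496 to 4451366. The 2 deepest libraries, high beauvericin 1 and 3, gave the lowest and the highest ndufb3 value of their group. The part of depth and of the hepatocyte markers in the result was not tested.

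In intestine, low enniatin B was above low beauvericin for 50 of the 64 genes (median 0.06), all 13 complex V subunits among them. At an unadjusted p under 0.05 there were 2 genes, atp5if1b and atp5mf, against 1.53% of all genes. The high levels gave 27 of 64 above 0 (median -0.01) and also 2 genes, ndufaf8 and ndufaf4, against 3.04%. Leaving out 1 library gave a low-level count of 35 to 59 of 64 and a median of 0.01 to 0.14. Without intestine low enniatin B 3 and intestine controls 5 and 6, the low-level count was 59 of 64. In that library 7 of the 64 genes were above the tissue median, and its summed enterocyte markers, 82381, were the lowest outside controls 5 and 6, while its summed myeloid markers, 5956, were the highest of the tissue. Their part in the result was not tested. The gene atp5mf differed by 0.31 ± 0.15 (95% interval 0.01 to 0.61) and atp5if1b by 0.42 ± 0.16, each with a limma adjusted p of 0.99994.

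The level of each toxin was compared within each tissue, and limma, edgeR and DESeq2 each called 0 of 64 genes in these 4 comparisons. Over all genes limma called 0%, edgeR at most 0.00398% and DESeq2 at most 0.0318%. At an unadjusted p under 0.05 the counts were 1 and 0 of 64 in intestine for enniatin B and beauvericin, against 1.73% and 1.82% of all genes. In liver they were 2 and 1, against 3.06% and 3.80%. High enniatin B was below low enniatin B for 54 of 64 genes in liver (median -0.09), with all 13 complex V subunits below 0. The median over all genes was at most 0.0202 from 0 in each of the 16 comparisons within a tissue. Leaving out 1 library gave 39 to 58 genes below 0 and a median of -0.12 to -0.03. The g subunit gene atp5l was at -0.30 ± 0.11 there (limma adjusted p = 0.99997), running from 542 through 583 to 685 at the high level and from 638 through 687 to 920 at the low level. The groups overlapped. High beauvericin was above low beauvericin for 44 of 64 genes in liver (median 0.07) and for 43 in intestine (median 0.08). With 1 library left out these were 37 to 50 in liver and 37 to 54 in intestine.

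Whether the tissues differed in their change against control was tested as the liver difference minus the intestine difference. All 58 libraries entered this fit without pairing the liver and intestine of one number. Limma called 0 of 64 genes for each toxin and level, and over all genes 0% for both levels of enniatin B and for high beauvericin and 0.0204% for low beauvericin. At an unadjusted p under 0.05 there were 2, 3, 9 and 6 genes for low and high enniatin B and low and high beauvericin, against 10.3%, 9.43%, 13.6% and 11.7% of all genes. For low and high enniatin B 38 and 30 of 64 were above 0, at medians of 0.06 and -0.02, and for each level of beauvericin 46 were, at 0.17 and 0.17, while 50.0% to 50.4% of all genes were below 0. Without intestine controls 5 and 6 these were 53, 46, 56 and 55, at 0.16, 0.10, 0.28 and 0.27. The gene cox19 was at -0.81 ± 0.21 for high beauvericin (limma adjusted p = 0.21), and was the 1 gene called by edgeR (adjusted p = 0.0364) and by DESeq2 (adjusted p = 0.0181), which called 1.28% and 2.44% of all genes. Neither tool called it without intestine controls 5 and 6.

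Library by library, the 64 genes tended to stand high or low together. The number of genes above their tissue median ran from 5 in intestine high beauvericin 6 to 57 in intestine low enniatin B 5, and in liver from 9 in high enniatin B 4 to 57 in high beauvericin 2. In the same libraries 41.6% to 52.98% of all genes were above the median in intestine and 44.04% to 53.01% in liver. At least 51 genes were above it in 7 intestine and 3 liver libraries, and at most 13 in 5 and 3. The median distance of the 64 genes from the tissue median ran from -0.18 to 0.34 log2 units in the intestine controls, and from -0.35 to 0.22 in intestine low enniatin B.

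**Figure D5:**
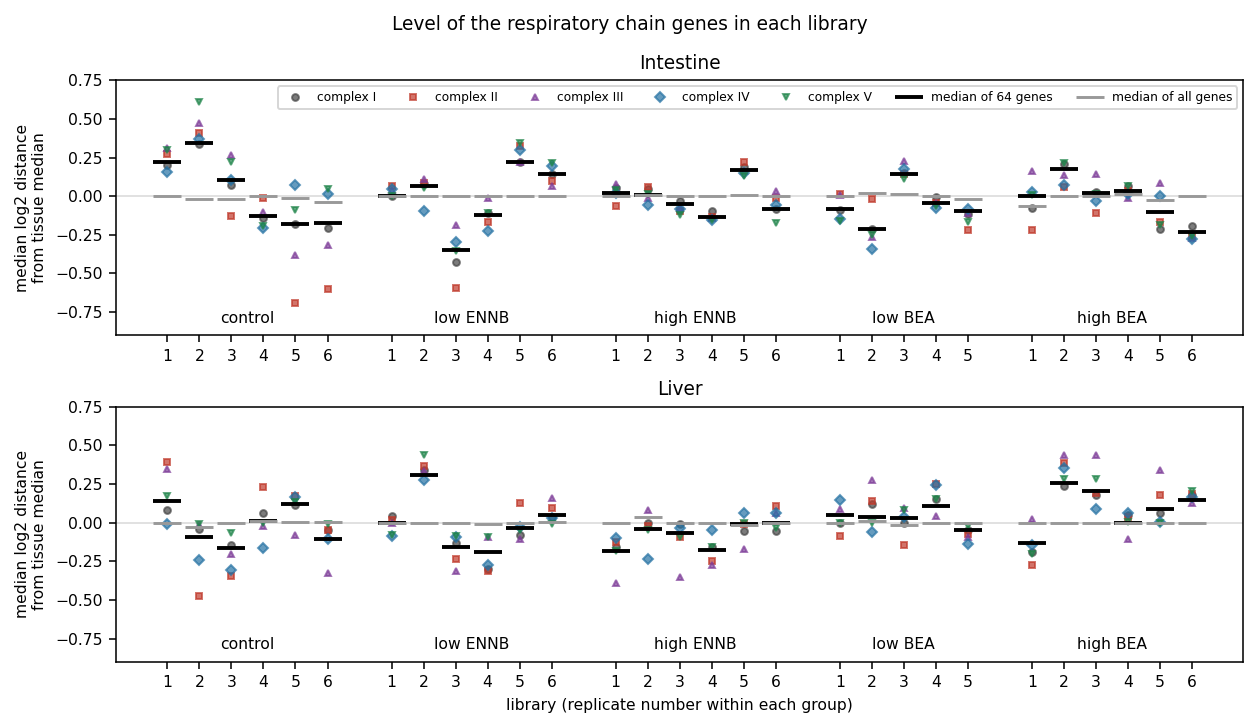
Median log2 distance of the genes from their tissue median (y axis) in each library, for complexes I to V (colored symbols), all 64 genes (black bars) and all genes (grey bars), by group and replicate number. Intestine controls 5 and 6 are low in complex II, intestine low enniatin B 3 is the lowest library over the 64 genes, and liver high beauvericin lies mostly above liver high enniatin B.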

How the data were processed

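Per the labels' protocols, oligo(dT)-enriched mRNA of each tissue was sequenced in 150 bp pairs (Illumina NovaSeq). Trim Galore 0.4.2, FastQC, HISAT2, featureCounts, Subread and DESeq2 1.18.1 are named in the submitters' processing notes, while build and strand setting were not given in the sources used here. The deposited table gives normalized counts, a signal that the authors made by dividing reads by 1 factor per library. Whole reads were recovered from the steps of these values: 99.9999% of values came within 0.1 read of a whole number.

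Gene symbols came from an NCBI table matched by gene ID, and no sequence or coordinate was used. The main test was limma 3.58.1 in R 4.3.3 (trend and robust options) on log2(value + 2), with all 29 libraries of a tissue in 1 fit of group means, or all 58 for comparisons of tissues. Genes needed a value of at least 10 in at least 5 libraries of the tissue, which left 25601 in intestine, 25157 in liver and 24519 in both. P-values were adjusted by Benjamini-Hochberg over all of them, with a threshold of 0.05, for 21 comparisons. Errors are SE unless stated. The steps were tested on simulated data.

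Alternatives were edgeR 4.0.16 (quasi-likelihood) and DESeq2 1.42.0 on the recovered reads, pseudocounts of 1 and 10, no filter, TMM scaling, only the compared groups, a replicate block, and leaving out libraries. The edgeR and DESeq2 fits without intestine controls 5 and 6 were added after seeing the data. Genes were named by smallest p, by the largest differences per complex, and for complex II and families with tissue forms. The list of chain subunits with other symbols was built from symbols. The values of 1 member are not reported here singly. The members and lists were chosen with earlier results of these data known.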

Additional observations from a re-analysis of the deposited data

Results flagged for a closer look

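For 21 genes, chosen after their values were seen, and for the median over the 64 genes, each group of 5 or 6 libraries was searched for a library far from the rest of its group, by the gap to its neighbour over the whole range. Of 220 sets of values, 16 had one, all in single genes, and chance gives about 1 in 20. All values are normalized counts. In intestine control 2, atp5if1b was high at 235 and cox6b1 high at 2468. In intestine low enniatin B 3, cox5b2 was low at 162 and cox7a1 low at 138. High enniatin B 5 had sdha at 3644 in intestine. In intestine low beauvericin, sdhb was at 2109 in library 5 and cox15 at 316 in library 3.

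In liver, cox4i1l was high at 29.1 in control 3 and at 38.8 in low enniatin B 4, both still far under every intestine library. Low enniatin B 2 had ndufa9a at 612 and atp5a1 at 10478. In high enniatin B, cox7a1 was at 541 in library 3 and cox15 at 413 in library 4. Low beauvericin 4 had cox5b2 at 3095. In high beauvericin, ndufb2 was at 1138 in library 1 and atp5mf at 511 in library 4.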

How the results depend on the processing

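In the comparison of control liver with control intestine, limma called 37 of the 64 genes, against 66.3% of all genes. Without intestine controls 5 and 6 and low enniatin B 3 it called 34, against 69.1% of all genes. With only the compared groups in the fit it called 24, and 31 to 37 when 1 library was left out. For these fits, and for the block fits below, the share of all genes is not given here. Their counts are therefore not read as particular to the 64 genes. Leaving out 1 library gave 0 to 1 calls for low enniatin B, 0 to 3 for high enniatin B and 0 to 5 for low beauvericin against control in intestine, the highest each without control 4, and 0 in the other exposure comparisons. DESeq2 gave 1 call for high enniatin B and 1 for low beauvericin in intestine, and edgeR and DESeq2 each gave 1 for the tissue difference in the response to high beauvericin. The cause was not tested.

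Over 506 named gene and comparison pairs, 12439 of 12513 alternative values kept their side of the threshold, 45 lost the call and 29 gained it. Only 26 of the 506 pairs were called in the main fit, so most of these values had no call to lose. No called value changed sign, while 715 uncalled values did. With the replicate number as a block, 36 of the 64 genes differed between the tissues, and 0 in every exposure comparison. Within a tissue, libraries of one number did not deviate together (median r of -0.00239 in intestine and 0.00622 in liver). Liver and intestine libraries of one number and treatment had a median r of 0.23, and 27 of 29 were over 0.1. Of the 29 liver libraries, 28 correlated best with the intestine library of their own number, as did 28 of 29 the other way. A block on that pairing, chosen after seeing the data, gave 39 calls between the control tissues, cox7a1 among them (limma adjusted p = 0.0206). The counts from that block for the tissue difference in the response are not given here. Depth limits cox4i1l in liver, where its median in the controls was 9.73.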
